A study of Mus musculus with 14 samples.

Results

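The genes described here code for the proteins of the cytosolic ribosome, together with a few genes that share their naming. They were chosen by symbol: every gene that the platform annotation calls Rpl or Rps followed by a digit, or Rplp0, Rplp1, Rplp2 or Rpsa, without the Rps6k kinases and without pseudogenes. This gave 66 genes of 16593 named genes on the array, 40 with large subunit symbols and 26 with small subunit symbols, measured by 84 probes. Only probes with a detection p-value below 0.05 on 7 or more of the 14 arrays were used, and 59 of the 66 genes had such a probe, 34 of the large and 25 of the small subunit. Rps19bp1, which codes for a regulator of the deacetylase SIRT1, and Rps23rg1, a mouse gene that arose by retroposition of Rps23, match the symbols although their products are not structural parts of the ribosome.

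The arrays measured liver RNA of male C57Bl/6J mice, 1 Illumina beadchip array per mouse. One group of 7 mice had eaten a sucrose diet and the other group of 7 an isocaloric diet with palatinose, a slowly digested isomer of sucrose. The sample titles state 22 weeks on the diet but the age label is 18 weeks, so the age at sampling is unclear. The labels call each sample a biological replicate. The comparison asks how the expression of ribosomal protein genes in liver differs between the diets, and whether large and small subunit genes differ alike.

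A ribosome is built from a small subunit, which reads the mRNA, and a large subunit, which joins amino acids. Each subunit needs its proteins in matched amounts, and ribosomal proteins made in excess are degraded. In mammals the mRNAs of ribosomal proteins begin with a C followed by a run of pyrimidines, the 5′ terminal oligopyrimidine tract, through which the growth kinase mTOR and the protein LARP1 control their translation. In liver, feeding and insulin act on this control, mostly on the translation of these mRNAs and less on their amount. An array measures only the amount of mRNA.

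The start sequences below are shown because the tract is the feature by which this gene family is best known. The members differ in whether a match to it lies at the annotated start. Each runs 5′ to 3′ from 40 bases before to 20 bases from the annotated start onward, credited to RefSeq on build GRCm38.p6. Capitals mark the run of pyrimidines that holds a C with at least 4 pyrimidines after it within 5 bases of the annotated start, and the letters CCGGAAG, the core of sites for the ETS family of transcription factors. Rpl28, Rps27, Rps6 and Rps10 carry the tract at the annotated start, and Rps26 a few bases further in. Rps27l, Rpl22l1 and Rpl7l1 are paralogs, of Rps27, Rpl22 and Rpl7. Where 2 starts are listed, for Rps27l, the upstream one is shown.
Rpl28, chr7:4792925-4792984, + strand: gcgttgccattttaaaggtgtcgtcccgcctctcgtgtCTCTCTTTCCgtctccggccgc
Rps27, chr3:90213629-90213688, - strand: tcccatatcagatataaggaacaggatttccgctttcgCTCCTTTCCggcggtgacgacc
Rps6, chr4:86857348-86857407, - strand: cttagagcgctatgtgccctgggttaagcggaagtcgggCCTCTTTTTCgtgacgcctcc
Rps10, chr17:27635225-27635284, - strand: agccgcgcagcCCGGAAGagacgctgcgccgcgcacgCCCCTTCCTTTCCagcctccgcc
Rps26, chr10:128626487-128626546, - strand: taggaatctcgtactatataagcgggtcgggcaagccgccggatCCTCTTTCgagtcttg
Rps27l, chr9:66946046-66946105, + strand: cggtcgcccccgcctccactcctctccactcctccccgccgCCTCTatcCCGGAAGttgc
Rpl22l1, chr3:28805468-28805527, + strand: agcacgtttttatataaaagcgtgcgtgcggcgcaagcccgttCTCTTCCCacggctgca
Rpl7l1, chr17:46782637-46782696, - strand: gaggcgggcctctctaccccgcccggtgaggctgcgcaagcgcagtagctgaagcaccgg

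Of the 66 genes, 57 matched a promoter in the RefSeq table, and 11 of these (19.3%) had the tract exactly at an annotated start, against 3.01% of the 27025 genes in the table. With the C allowed within 5 bases of the start, 27 (47.4%) had it, against 21.2% of all genes. The letters CCGGAAG, searched on both strands from 250 bases before to 50 after the start, were in 22 (38.6%) against 9.93%, and TATAAA, searched alike, in 6 (10.5%) against 15.7%. Each motif was searched by itself, so matches of different motifs may overlap. A match describes the letters only, and a window without a match says nothing about a factor, since annotated starts can be off by some bases.

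The arrays were alike in depth of signal, and 4 of them held muscle transcripts besides those of liver. Mean signals ran from 190 to 257, with 44.6% to 48.6% of probes detected, and pairs of arrays correlated at 0.971 to 0.993. Of the 9 hepatocyte marker genes, 7 or 8 were detected on each array (detection p under 0.01), Fgb on none, and their summed signal was 114847 to 125309 with sucrose and 113066 to 125916 with palatinose. Of 12 skeletal muscle genes, 10 to 12 were detected on SUC_415_02, PAL_407_04, PAL_417_03 and PAL_429_03 and 1 or 2 on the other arrays. Of 15 pancreatic acinar genes, 15 were detected on SUC_415_02, 10 on SUC_421_03 and 2 or 3 elsewhere. PAL_417_02 had the highest summed signal of B and plasma cell genes (298 against 23 to 75 on the other arrays). The sucrose array SUC_424_02 stood apart, with the highest mean signal. Values without it are given below for the counts and medians of the members and for many of the members it moved. In such bulk samples fewer cells of a type and less RNA per cell cannot be told apart.

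Most ribosomal protein genes had slightly higher values with palatinose, and none passed the test. With limma, 0 of the 59 genes had an adjusted p under 0.05, as did 0 of the 8829 features tested (0%), and the smallest adjusted p of a member was 0.678. At an unadjusted p under 0.05 there were 9 members higher and 0 lower, a share of 15.3% where 3.75% of all features were higher and 3.35% lower at this threshold. The count of 9 was not stable, and ran from 4 to 17 under the other settings described at the end. The difference was above 0 for 51 members (86.4%) and for 54.8% of all features. The median difference of the members was +0.10 log2, or 1.07-fold, and that of all features +0.01. Members vary together within a mouse, so they are not separate observations of the diets, and no test was made over the list. For 0 members did the 2 groups of arrays fail to overlap, where 0.0906% of all features lay wholly higher and 0.034% wholly lower with palatinose.

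The 95% interval stayed inside 1.2-fold both up and down for 28 of the 59 members (47.5%) and for 38.9% of all features, and within 1.5-fold for all 59 members against 95.3% of all features. Member differences ran from -0.22 for Rps23rg1 to +0.27 for Rps9, while those of all features ran from -1.38 to +0.90. Mice of the same diet also differed little in these genes: the median residual SD within a diet was 0.12 log2 for the members and 0.18 for all features. Most members have bright probes, so the other bright features are a closer background. Among the other 902 features with a mean log2 intensity of 10 or more, the median residual SD was 0.15, the median difference +0.01 and the share above 0 was 55.7%. The interval stayed inside 1.2-fold for 50.7% of these features and for 51.2% of the members of that brightness, which is nearly the same share. Among the 41 members at that brightness the median difference was +0.10 and 36 (87.8%) were above 0, and among the 18 dimmer members these were +0.08 and 15 (83.3%).

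**Figure D1:**
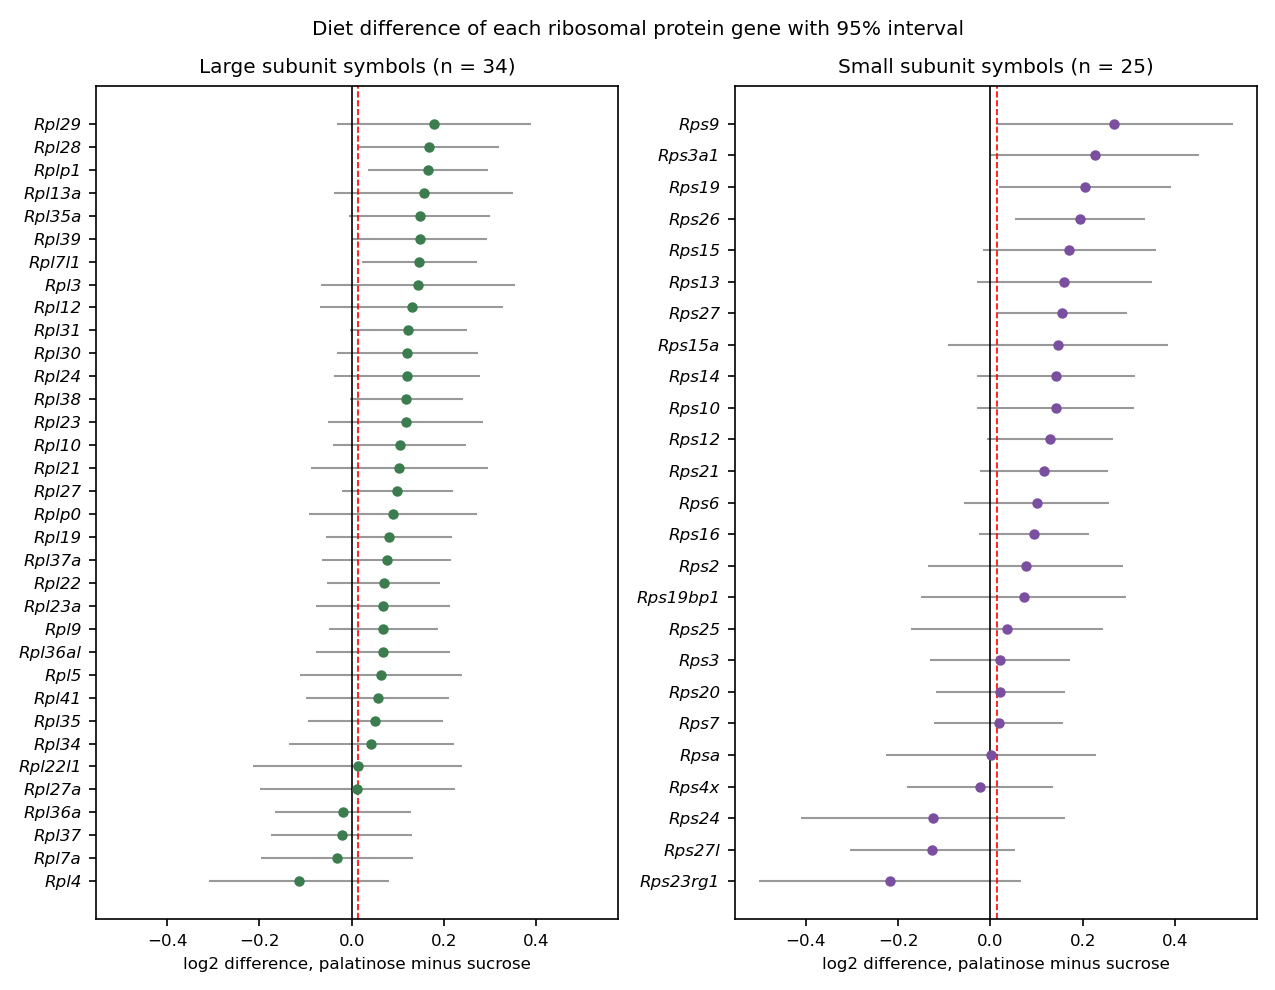
Log2 difference of palatinose minus sucrose (x axis) for each of the 34 large and 25 small subunit genes, as points with 95% intervals from limma (7 arrays per diet). The dashed red line is the median of all 8829 features, +0.01. Most points lie to its right and most intervals cross 0.

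The medians of large and small subunit genes lay close together. Of the 34 large subunit genes 30 were higher and 4 lower with palatinose, and of the 25 small subunit genes 21 were higher and 4 lower, beside 54.8% higher among all features. The median difference was +0.09 for the large and +0.10 for the small subunit, and without Rps19bp1 and Rps23rg1 the small subunit gave +0.12, with 20 of 23 higher. The mean over each subunit was then taken on each array after every gene had been centred on its own mean over the 14 arrays, so that no probe's level is set against another's. For the large subunit these means were -0.042 ± 0.042 (SD, n = 7) with sucrose and 0.042 ± 0.035 with palatinose, and for the small subunit -0.040 ± 0.044 and 0.040 ± 0.047. The gap between the diets was larger than the SD within a diet for either subunit.

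Array by array, the diets overlapped for both subunits. The large subunit mean ran from -0.090 on SUC_424_02 to 0.036 on SUC_421_03 with sucrose, and from -0.0029 on PAL_430_04 to 0.092 on PAL_418_07 with palatinose. On SUC_424_02 the other features with a mean log2 intensity of 10 or more, centred alike, also averaged -0.056. On the other arrays they averaged -0.011 to 0.013. SUC_421_03 was the only sucrose array whose large subunit mean was above any of the palatinose values. The small subunit mean ran from -0.116 on SUC_423_04 to 0.0061 on SUC_408_02 with sucrose, and from -0.034 on PAL_429_03 to 0.081 on PAL_418_07 with palatinose. PAL_429_03, the array with the most muscle signal, was the lowest palatinose array for the small subunit; the part of muscle RNA in this was not tested. The large minus small difference was -0.0018 ± 0.047 (SD, n = 7) with sucrose and 0.0018 ± 0.025 with palatinose. It spanned -0.070 on SUC_424_02 to 0.071 on SUC_423_04, both sucrose arrays, so mice of 1 diet differed in this balance by more than the diets did.

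**Figure D2:**
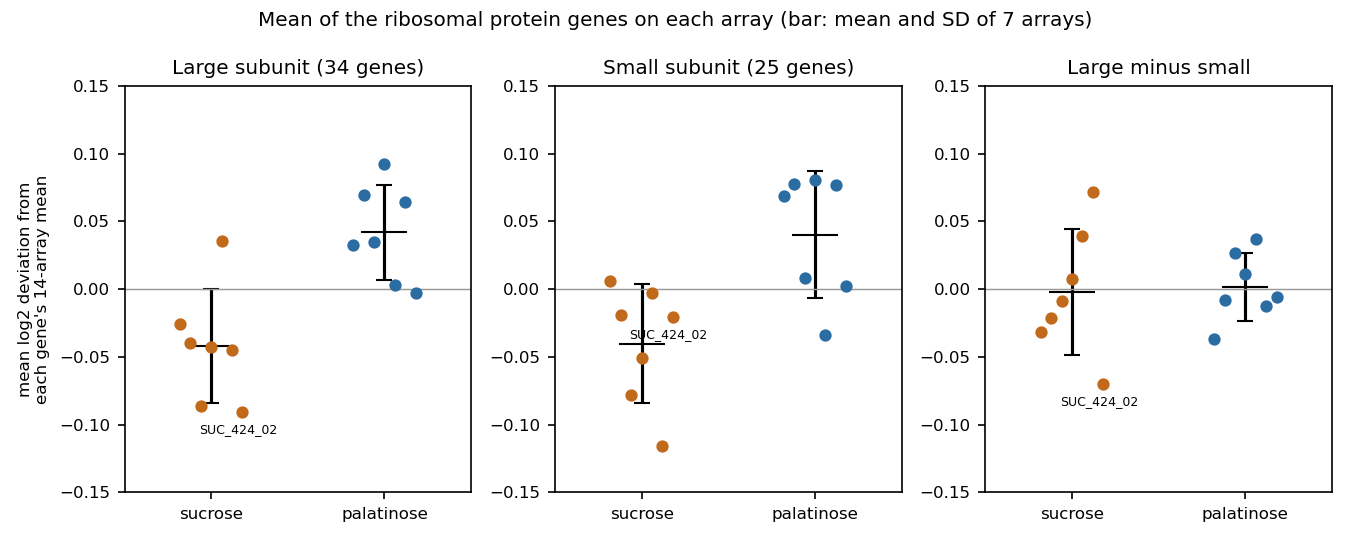
Mean log2 deviation from each gene's 14-array mean (y axis), over the 34 large subunit genes, the 25 small subunit genes and as their difference, with 1 point per array and the mean and SD of 7 arrays per diet. The diets are shifted against each other for both subunits and overlap for each, while the large minus small values of both diets lie around 0.

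The number of members above their own 14-array mean shows the same ordering. It was 12 to 35 of 59 on the sucrose arrays, with a median of 21, and 25 to 48 on the palatinose arrays, with a median of 41. The lowest sucrose array was SUC_423_04 and the highest palatinose array PAL_417_02. For all features the share above the own mean was 46.3% to 51.8% with sucrose and 48.6% to 53.8% with palatinose. The array names hold a code of unknown meaning, which SUC_417_01, PAL_417_02 and PAL_417_03 share. Within that code the mean over all members was -0.046 on the sucrose array and 0.073 and 0.023 on the palatinose arrays. No other code holds both diets.

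**Figure D3:**
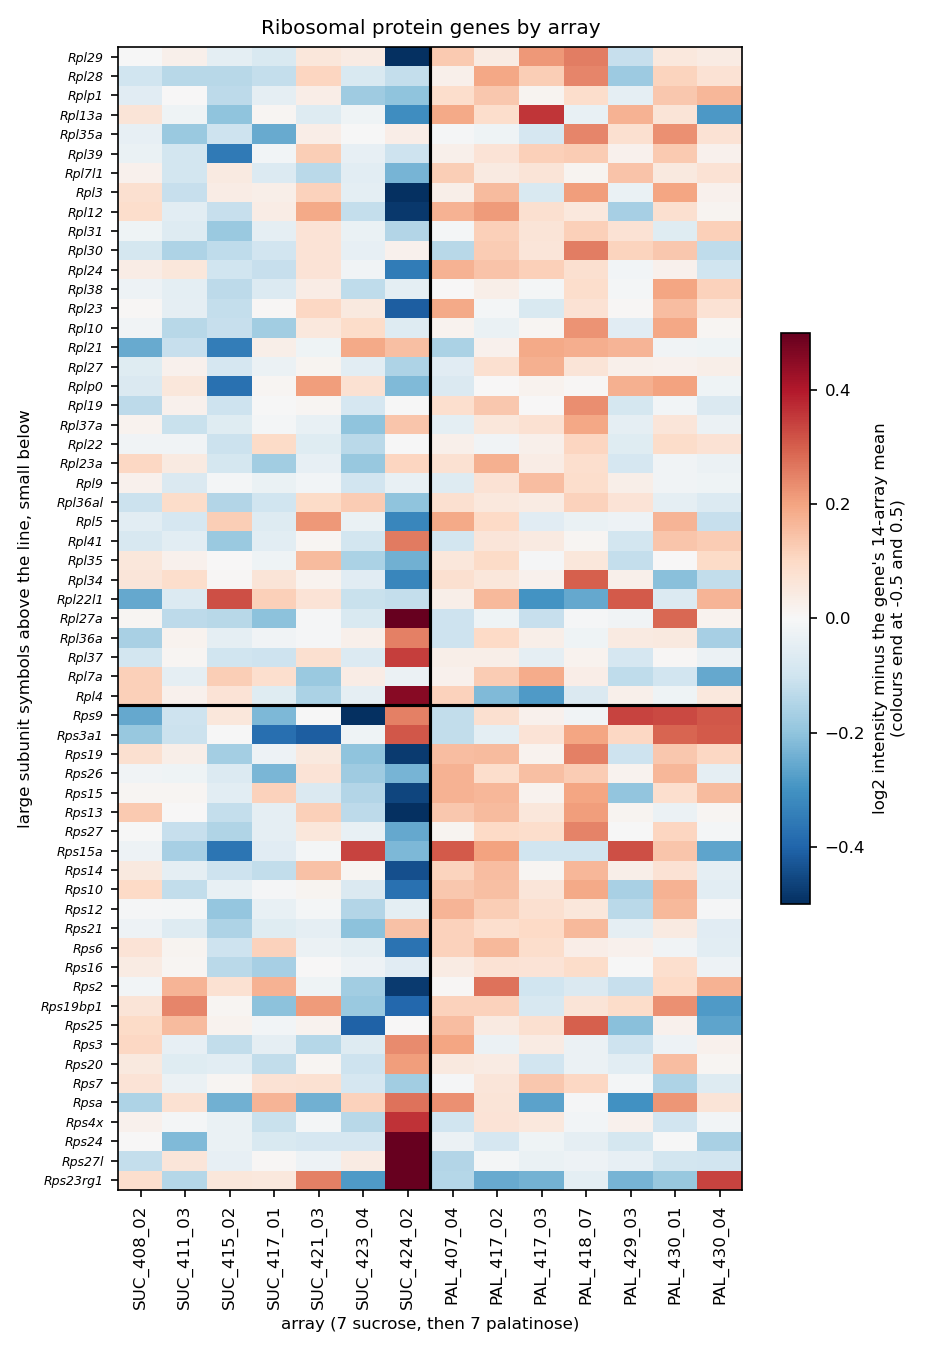
Log2 intensity of each of the 59 genes minus its own 14-array mean (colour, ending at -0.5 and 0.5), with arrays in columns and genes in rows by subunit and diet difference. Most palatinose columns hold more red than blue and most sucrose columns more blue than red. Exceptions are PAL_429_03 and PAL_430_04, with 25 and 29 of the 59 genes above their mean, and SUC_421_03, with 35. SUC_424_02 holds the strongest colours of both kinds.

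Among the large subunit genes the stalk protein gene Rplp1 had the smallest p. The stalk is the arm of acidic proteins that draws elongation factors to the ribosome. Rplp1 had log2 intensities of 13.12 to 13.36 with sucrose (median 13.26) and 13.28 to 13.49 with palatinose (median 13.41). All 7 palatinose arrays lay above the sucrose mean and the ranges overlapped slightly. The difference was +0.16 (95% interval 0.03 to 0.29, adjusted p = 0.678). Rplp0, the base of the stalk and a common reference gene, had a dim probe and gave +0.09 (-0.09 to 0.27; +0.035 without SUC_415_02 and +0.059 without SUC_424_02). The probe of Rplp2 was not detected on any array.

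Rpl28 and Rpl29, with the other largest differences of the subunit, were less even between mice. Rpl28, whose start sequence above carries the tract, had 11.41 to 11.66 with sucrose (median 11.44) and 11.37 to 11.80 with palatinose (median 11.67), and differed by +0.17 (0.02 to 0.32, adjusted p = 0.681). Its highest sucrose array was SUC_421_03, and the palatinose range enclosed the whole sucrose range. Rpl29 had 9.54 to 10.22 with sucrose (median 10.16) and 10.04 to 10.42 with palatinose (median 10.21). Its difference of +0.18 (-0.03 to 0.39) came down to +0.09 without SUC_424_02, the lowest array. Rpl13a, which also leaves the ribosome to silence inflammatory mRNAs in human monocytes, gave +0.16 (-0.04 to 0.35), with 7.69 to 8.07 with sucrose and 7.71 to 8.36 with palatinose.

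The tunnel and core genes of the large subunit had differences of either sign. Rpl39, a small protein that lines the exit tunnel of the growing chain, had 11.38 to 11.86 with sucrose (median 11.70) and 11.76 to 11.87 with palatinose (median 11.81), and differed by +0.15 (0.00 to 0.29, adjusted p = 0.699). Rpl4, which also reaches into the tunnel, had the lowest difference of the subunit, -0.11 (-0.31 to 0.08), with 7.79 to 8.40 with sucrose and 7.67 to 8.07 with palatinose. Its highest value was on SUC_424_02, and without that array the difference was -0.05. Rpl3, near the site of peptide bond formation, gave +0.14 (-0.07 to 0.35) with equal medians of 12.02 in both diets. Its sucrose range of 11.39 to 12.10 had SUC_424_02 at its low end, and without that array the difference was +0.06. Rpl10, which joins the large subunit last, gave +0.10 (-0.04 to 0.25), and Rpl5, which carries the 5S rRNA and can bind MDM2, +0.06 (-0.11 to 0.24; +0.01 without SUC_424_02).

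Other large subunit genes named by size of difference or spread lay close to 0. Rpl7a gave -0.03 (-0.20 to 0.13), Rpl37 -0.02 (-0.17 to 0.13), Rpl36a -0.02 (-0.17 to 0.13) and Rpl27a +0.01 (-0.20 to 0.22). Rpl37, Rpl36a and Rpl27a were high on SUC_424_02, and without it they gave +0.03, +0.02 and +0.10. The remaining large subunit genes were all above 0 with all arrays, from Rpl22l1 at +0.01 and Rpl34 at +0.04 to Rpl35a at +0.15. Without SUC_424_02, on which Rpl34 was lowest, Rpl34 gave -0.0077 and Rpl22l1 -0.0070, and Rpl35 came down from +0.05 to +0.015.

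Of the small subunit genes Rps26 had the smallest p of all members. Its protein sits where mRNA leaves the small subunit, and its gene is mutated in some human patients with Diamond-Blackfan anaemia. Rps26 had 10.86 to 11.16 with sucrose (median 11.03) and 11.05 to 11.27 with palatinose (median 11.22). All 7 palatinose arrays lay above the sucrose mean. The difference was +0.19 (0.05 to 0.34, adjusted p = 0.678), and it stayed between +0.17 and +0.22 when any 1 array was left out.

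Rps9, a protein of the decoding region, had the largest difference and varied most between mice among the higher genes. It had 10.17 to 11.09 with sucrose (median 10.74) and 10.72 to 11.18 with palatinose (median 10.92), and differed by +0.27 (0.01 to 0.53, adjusted p = 0.696). Its other probe gave +0.26 (0.09 to 0.44). The low end of the sucrose range was SUC_423_04, and without it the difference was +0.18, the lowest value when 1 array was left out. Rps3a1, with 8.25 to 8.98 and 8.54 to 8.97, gave +0.23 (0.00 to 0.45). The highest sucrose array was SUC_424_02 for both genes, and without it the differences were +0.33 for Rps9 and +0.30 for Rps3a1.

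Rps19, Rps27 and Rps14 were also above the sucrose mean in 6 or 7 of the 7 palatinose mice. Rps19, needed to mature the small subunit RNA and the gene most often mutated in Diamond-Blackfan anaemia in humans, had 11.35 to 11.91 with sucrose and 11.73 to 12.08 with palatinose, and differed by +0.20 (0.02 to 0.39, adjusted p = 0.682; +0.14 without SUC_424_02). Rps27, a zinc finger protein, had 11.43 to 11.74 and 11.67 to 11.93, and differed by +0.16 (0.02 to 0.30, adjusted p = 0.681). For Rps27 all 7 palatinose arrays lay above the sucrose mean. Rps14, of the platform, gave +0.14 (-0.03 to 0.31; +0.08 without SUC_424_02).

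Rps6, the substrate of the S6 kinases downstream of mTOR, and Rps3, at the entry of the mRNA channel, were nearer to 0. Rps6 had 10.77 to 11.25 with sucrose and 11.08 to 11.30 with palatinose, and differed by +0.10 (-0.06 to 0.26; +0.05 without SUC_424_02). Rps3 gave +0.02 (-0.13 to 0.17), and 0.00 on its other probe. Rpsa, also known as the laminin receptor, gave 0.00 (-0.23 to 0.23) from a probe of low signal. No named probe on the platform was found here for Rpl11 and Rps27a.

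The 4 small subunit genes with lower values with palatinose were all highest on 1 sucrose array, SUC_424_02. Rps24, whose mRNA is made in several splice forms, had 11.29 to 12.44 with sucrose (median 11.44) and 11.35 to 11.51 with palatinose (median 11.47). The 12.44 was SUC_424_02; the difference of -0.12 (-0.41 to 0.16) was +0.02 without it, and the other probe of Rps24 gave +0.16. Rps4x, encoded on the X chromosome, gave -0.02 (+0.04 without SUC_424_02). Rps23rg1, which is no ribosomal protein gene in the strict sense, gave -0.22 (-0.50 to 0.07; -0.11 without SUC_424_02) from a dim probe. Rps19bp1 gave +0.07 (-0.15 to 0.29; +0.01 without SUC_424_02).

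Paralogs and their partners had values of either sign. Rps27l, induced by p53, had 12.10 to 12.73 with sucrose and 12.07 to 12.20 with palatinose, a difference of -0.13 (-0.30 to 0.05; -0.05 without SUC_424_02) against +0.16 for Rps27. Rpl22l1 gave +0.01 (-0.21 to 0.24) from a dim probe, and Rpl22, the RNA-binding partner, +0.07 (-0.05 to 0.19). Rpl36al gave +0.07 (-0.08 to 0.21) and Rpl36a -0.02, and without SUC_424_02 these were +0.039 and +0.021. Rpl7l1 had 8.08 to 8.35 with sucrose and 8.32 to 8.45 with palatinose. All 7 palatinose arrays lay above the sucrose mean, and the difference was +0.15 (0.02 to 0.27, adjusted p = 0.681). Its other probe, which is dimmer, gave -0.02. The difference between a paralog and its partner was not tested.

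The array SUC_424_02 decided the size or sign of several of these values. Over the 59 members, the SD of the deviations on that array was 0.33, against 0.089 to 0.14 on the other 13 arrays, and 24 members lay more than 0.3 log2 from their own mean there, against 0 to 5 elsewhere. All features together had an SD of 0.36 on it, against 0.17 to 0.29. Rps24, Rps27l, Rpl27a, Rpl4 and Rps23rg1 were high on it, whereas Rpl3, Rpl29, Rps13, Rpl12 and Rps2 were low. Leaving out SUC_424_02 brought Rps2 from +0.08 to +0.0039, Rps13 from +0.16 to +0.09, Rpl12 from +0.13 to +0.06 and Rps7 from +0.02 to -0.0099. Without it 52 of the 59 members were higher with palatinose and 7 lower, the median difference was +0.08, for the large and the small subunit alike, and 10 members had an unadjusted p under 0.05, all higher. The median of all features was then +0.01 and 52.3% were above 0. Of these 8724 features, 627 had an unadjusted p under 0.05, counted in either direction. What sets this array apart was not tested.

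**Figure D4:**
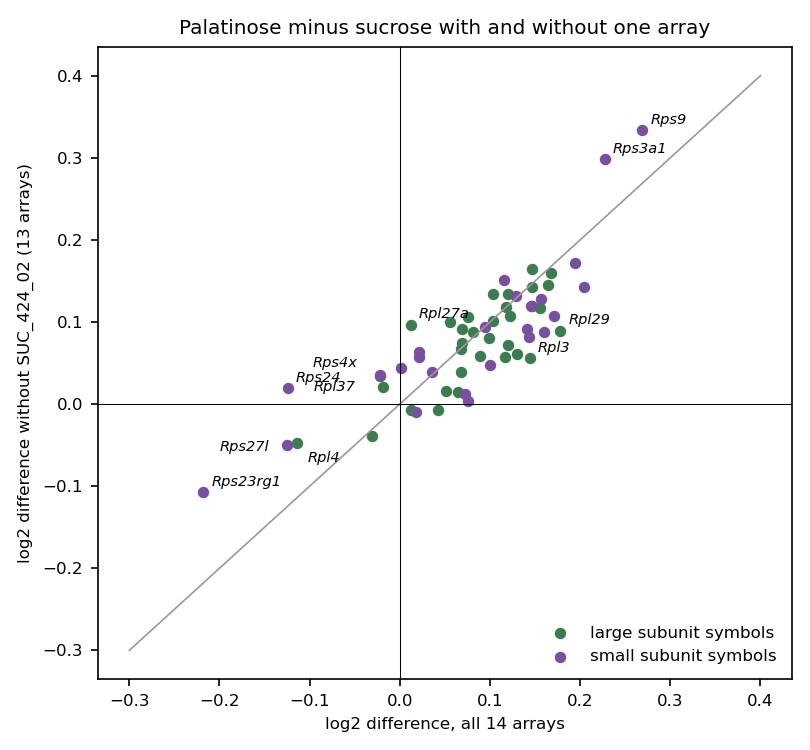
Log2 difference of palatinose minus sucrose for each of the 59 members with all 14 arrays (x axis) and without SUC_424_02 (y axis). Points near the grey line did not depend on that array; Rps24 moves from -0.12 to 0.02 and Rpl29 from 0.18 to 0.09.

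The shift was recomputed without the arrays that held transcripts of other tissues. Without the 5 arrays that held muscle or pancreatic transcripts, a choice made after seeing the data, 49 of 59 members were higher and the median difference was +0.11. Of all features 53.8% were then higher, with a median of +0.02. Without SUC_424_02 and PAL_417_02, the latter the array with the highest B and plasma cell and T and NK cell signal and the most members above their mean, 50 were higher and the median was +0.07. For all features these were 52.8% and +0.01. Leaving out all 7 of these arrays gave 48 of 58 members higher and a median of +0.09, beside 51.8% and +0.01 for all features. Immediate early genes, which follow handling of tissue, had summed signals of 530 to 1717 with sucrose and 573 to 1961 with palatinose, and macrophage genes 657 to 1435 and 537 to 1706. Of 4 proliferation genes with a probe, 0 or 1 were detected per array, and their summed signal was 1 to 18. The part of any of these cells in the shift was not tested.

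Rpl3l shows the muscle RNA directly. It is the paralog of Rpl3 that is made in heart and skeletal muscle. Its signal was 147 on PAL_429_03, 111 on SUC_415_02, 42 on PAL_407_04 and 11 on PAL_417_03, which are the 4 arrays with muscle transcripts, and -1 to 5 on the other 10. It was detected on 4 arrays and therefore not tested. Of the other 6 genes without a kept probe, Rpl6, Rpl14, Rpl17, Rplp2, Rps23 and the testis-biased Rpl39l, each was detected on 0 arrays, with signals of -8 to 5. For the first 5 of these, which all cells need, this speaks of the probe's signal and not of the level of the mRNA.

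Where a member had several kept probes, they mostly pointed the same way. Of 10 such genes, 8 had the same sign on every kept probe: Rpl21, Rpl23, Rpl29, Rpl31, Rpl38, Rps3, Rps9 and Rps19. The probes of Rpl23 gave +0.12, +0.14 and +0.05, and those of Rpl38 +0.12 and +0.20. Rps24 and Rpl7l1 had probes of opposite sign. Ribosomal protein genes have many processed pseudogenes and near-identical copies, and a probe may bind transcripts of these as well.

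Members with the tract exactly at the annotated start were all higher, but so were most members. Of the 9 such genes that were tested, Rpl28, Rpl35, Rpl35a, Rpl38, Rps6, Rps10, Rps15a, Rps21 and Rps27, 9 were higher, from +0.05 to +0.17, with a median of +0.14. Of the 42 members with a promoter but no tract there, 34 were higher, with a median of +0.07. The other 8 tested members had no promoter here, so whether they carry the tract is unknown. Of these, 8 were higher, with a median of +0.13. With the wider window of 5 bases 20 of 24 with the tract and 23 of 27 without it were higher, with medians of +0.12 and +0.07. Among other genes tested, 95 of 192 (49.5%) with the tract at the start were higher and 55.2% of those without it, with medians of 0.00 and +0.01. Members with CCGGAAG had a median of +0.08 and those without it +0.10.

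The wider machinery of the ribosome showed no called change either. Of 70 tested genes of the mitochondrial ribosome, a separate ribosome with its own proteins, 42 were higher and 28 lower, 0 passed, and the median difference was +0.03, beside 54.8% higher and +0.01 for all features. The 4 with the smallest p were Mrpl11 at +0.18, Mrps25 at +0.24, Mrps18b at +0.10 and Mrpl20 at +0.21, and the lowest difference was -0.20 for Mrps35. Of 28 ribosome biogenesis genes 21 were higher and 7 lower and 0 passed, with a median of +0.03. The 4 with the smallest p were all higher. They were the only ones with an unadjusted limma p under 0.05, a share of 14.3% higher and 0 lower. This was near the 15.3% of the ribosomal protein genes, where 3.75% of all features were higher at this threshold. The RNA polymerase I subunit genes Polr1a and Polr1c gave +0.24 (0.06 to 0.41) and +0.20, Bms1, a GTPase of small subunit assembly, +0.27, and Fbl, the methyltransferase fibrillarin, +0.19. The probes of Bms1 and Mrps25 were dim. At the other end Nop58, a partner of fibrillarin, gave -0.22 (-0.52 to 0.08), and another polymerase I subunit gene, Polr1d, gave -0.05.

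A list of translation factors, whose mRNAs are often controlled together with those of ribosomal proteins, and of partner genes such as Npm1, Nap1l1, Naca and Btf3 was spread around 0. Of 17 tested, 8 were higher and 9 lower and 0 passed, with a median of -0.03. Eef2, which moves the ribosome along the mRNA, gave -0.25 (-0.51 to 0.01), the nucleolar chaperone Npm1 -0.23, the poly(A) binding protein Pabpc1 -0.11 and Btf3 +0.12. Fau, which codes for a small subunit protein fused to a ubiquitin-like protein, gave +0.23 (-0.01 to 0.48). Its SD was 0.30 with sucrose and 0.12 with palatinose. The difference between this list and the ribosomal protein genes was not tested. The mitochondrial, biogenesis, translation, growth signalling and stress lists and Fau were not recomputed without SUC_424_02.

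For growth signalling to the ribosome only the mRNAs of 18 of its genes were measured, not the signalling itself. Of these, 10 were higher and 8 lower and 0 passed, with a median of +0.04. The list mixes inhibitors with genes that act the other way, so its median gives no direction of signalling. Akt1s1, an inhibitor within the mTOR complex, gave +0.15 (0.03 to 0.27), the S6 kinase gene Rps6kb2 +0.13, Mlst8, a subunit of the mTOR complexes, +0.16, and Sesn2, which restrains mTOR when amino acids are short, -0.18. The probes of Rps6kb2 and Sesn2 were dim, with mean log2 intensities of 4.51 and 4.96 with sucrose and 4.65 and 4.78 with palatinose. Of 7 genes that answer ribosomal stress through p53, 3 were higher and 4 lower and 0 passed. Among them Cdkn1a gave +0.39 with a wide interval (-0.54 to 1.32). Phlda3 gave +0.17 and Zmat3 -0.14, both from dim probes.

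**Figure D5:**
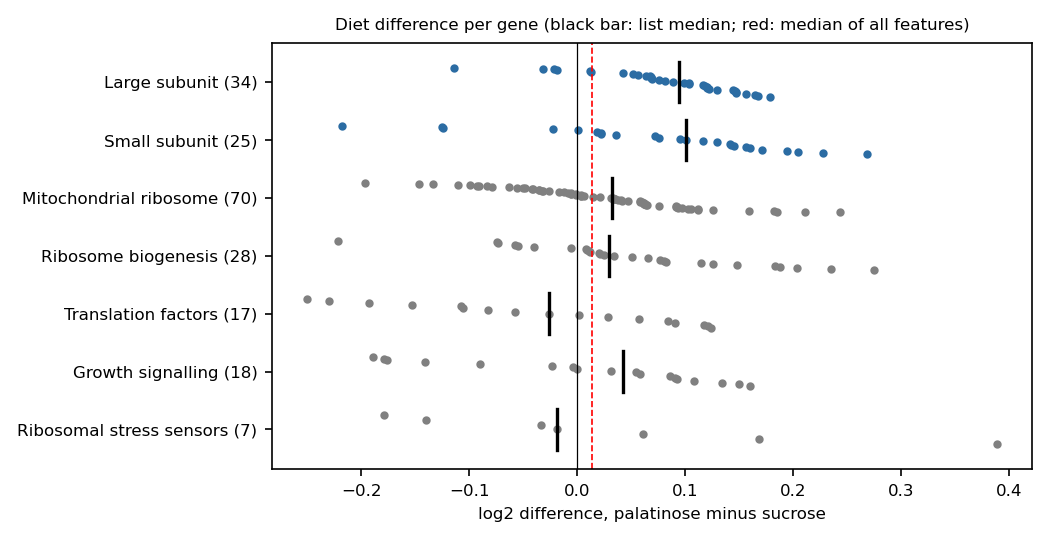
Log2 difference of palatinose minus sucrose (x axis) per gene, by list (number of genes tested in brackets), with the list median as a black bar and the median of all features as the dashed red line. The medians of the large and small subunit, +0.09 and +0.10, lie right of those of the other lists, which run from -0.03 to +0.04.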

How the data were processed

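The deposited non-normalized table holds signal intensities and detection p-values, per the file headers. Values below 0 show that a background had been subtracted. The authors' second table holds intensities with equal medians in all columns, normalized by a method not given in the sources used here, and it was used as an alternative. Per the labels' protocols, RNA was purified with a column kit and DNase and labelled by amplification. The intensities were corrected and quantile normalized with neqc of limma 3.58.1 (R 4.3.3, offset 16). The kept probe with the highest mean stood for a gene, which gave 8829 features. Diets were compared with lmFit and eBayes, 7 arrays against 7, two-sided, without a covariate, with p-values adjusted by the Benjamini-Hochberg method over all features and called under 0.05. Precision is limited by the number of arrays. The offset draws differences of dim probes toward 0.

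Column names in the non-normalized table give the diet but no replicate number. The replicate block was therefore run on the authors' values, whose columns carry the numbers. Correlations of same-numbered arrays, as deviations from the diet means, were -0.19 to 0.17, with 3 pairs above 0.1. The labels do not say whether equal numbers pair the mice, and weak correlations cannot settle it.

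The members and lists were chosen with earlier results of these data known. Named are the 4 largest differences in each direction and the 3 largest residual SDs per subunit, the stalk genes and Rpsa, a panel, paralog pairs and genes whose probes disagree in sign. Rpl12, Rpl21, Rpl23, Rpl31, Rpl34, Rpl35, Rpl35a, Rpl38, Rps2, Rps7, Rps10, Rps13, Rps15a, Rps19bp1, Rps21, Rps25, Mrps35, Nop58 and Polr1d were named after their values were seen. The fit was tested on simulated data. Alternatives were other background, offset, normalization, filter, probe and variance settings, array weights and leaving out arrays.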

Additional observations from a re-analysis of the deposited data

Results flagged for a closer look

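Of 126 groups of 7 values examined (59 genes and 4 means over members, in each diet), 14 held an array whose gap to its nearest neighbour was large against the range of its group, where chance gives about 1 in 20. Of these 14, 10 were SUC_424_02. That sucrose array was lowest for Rpl23 (log2 intensity 13.09, nearest 13.38), Rpl29 (9.54, nearest 10.08), Rpl3 (11.39, nearest 11.87), Rpl34 (10.29, nearest 10.56) and Rps13 (10.12, nearest 10.51). It was highest for Rpl27a (8.45, nearest 7.96), Rpl37 (12.71, nearest 12.45), Rps24 (12.44, nearest 11.52), Rps27l (12.73, nearest 12.28) and Rps4x (11.94, nearest 11.60). The other sucrose arrays were SUC_421_03, highest for Rpl28 (11.66, nearest 11.48), and SUC_423_04, lowest for Rps25 (9.46, nearest 9.85). With palatinose PAL_430_01 was highest for Rpl27a (8.24, nearest 7.97) and PAL_430_04 for Rps23rg1 (5.17, nearest 4.79). The causes were not tested.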

How the results depend on the processing

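Over all alternatives 0 ribosomal protein genes were called, and the number of all features called was 0 except without the filter on dim probes, where it was 1. Members with an unadjusted limma p under 0.05 numbered 5 with cyclic loess and with median scaling, 4 without PAL_418_07 and 17 with array weights, all higher. Over all features, in either direction, these settings gave 621, 458, 464 and 854. The replicate block gave 5 members higher and 1 lower, and 617 of all features. The median difference of the members stayed above 0 under every alternative, at +0.07 with median scaling and with cyclic loess, +0.10 on the authors' values and +0.08 with an offset of 50, and between +0.08 and +0.11 when any 1 array was left out. With the replicate block on the authors' values, 0 genes were called, the median was +0.10 and 50 of 59 members were higher, as without the block. On these values 55.0% of all features were higher. Of the members named after their values were seen, Rpl34 gave -0.0077 and Rps7 -0.0099 without SUC_424_02. The members below, named by the rule, changed sign, and none of them was called. Without background correction the difference of Rpsa was -0.010, and on the authors' values -0.015 with and without the block. The difference of Rpl27a was -0.00021 with cyclic loess and -0.014 with median scaling. With array weights, Rpl22l1 gave -0.062, Rpl36a 0.017, Rpl37 0.031, the difference of Rps24 was 0.00077, and that of Rps4x 0.046 and of Rpsa -0.017, and with the mean of all kept probes Rps24 gave 0.020. Leaving out 1 array gave -0.038 to 0.068 for Rpl22l1, -0.039 to 0.053 for Rpsa, -0.035 to 0.097 for Rpl27a, -0.047 to 0.021 for Rpl36a, -0.041 to 0.034 for Rpl37, -0.17 to 0.020 for Rps24, -0.048 to 0.035 for Rps4x, -0.0091 to 0.063 for Rps3 and -0.065 to 0.0091 for Rpl7a. Of the arrays left out after seeing the data, those with muscle or pancreatic transcripts gave -0.051 for Rps3 and -0.0069 for Rpsa. Without SUC_424_02 and PAL_417_02 Rpl22l1 gave -0.031, Rpl36a 0.0033, Rpl37 0.026, Rps24 0.024 and Rps4x 0.023. Without all of these 7 arrays Rpl13a gave -0.094, Rpl36al -0.0042, Rpl37 0.059, Rps23rg1 0.10, Rps24 0.024, Rps4x 0.019 and Rps6 -0.050. Where an array was left out, fewer samples entered the fit; otherwise the cause was not tested. No block for slides could be set up, as slides are not named in the labels or headers. By their numbers in the labels, 1 of 7 sucrose arrays deviated most like the palatinose array of its own number. This does not settle whether the numbers pair the mice.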
